A study of Mus musculus with 3 samples.

Results

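The miR-130 and miR-301 family was followed in cultured newborn mouse ovary through 5 mature miRNAs, taken by name from a table of 627. They were mmu-miR-130a-3p, mmu-miR-130b-3p, mmu-miR-301a-3p and mmu-miR-301b-3p, which carry a common seed, and mmu-miR-301a-5p, the opposite arm of the miR-301a hairpin (mmu, for mouse, is left out of the names from here on). All 5 were found, in 1 row each, and all 5 averaged 10 or more normalized counts, as did 587 of the 627 miRNAs. The ovaries came from newborn CD1 mice and were cultured whole for 72 h in serum-containing medium with 0, 10, or 100 μM DEHP, a phthalate plasticizer. The 0 μM group received the DMSO vehicle. According to the methods, 120 ovaries of each group went to sequencing, and the table holds 1 small RNA library per concentration. No spread between cultures can be estimated from it, so no p-value is given, and the library and the dose cannot be told apart. miR-301a-5p was included because its count had been seen to fall, so its ratios are given as a description.

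A miRNA hairpin is cut into a 5p and a 3p strand, and the strand kept by Argonaute pairs with mRNAs mainly through its seed, bases 2 to 8. miRNAs with the same seed can bind the same sites whatever gene they come from. For miR-130 and miR-301 the 3p strand is usually taken as the active one and the 5p strand as the passenger. Among the targets described for the seed is Pparg, a nuclear receptor through which phthalate metabolites can act. In the newborn mouse ovary, cysts of germ cells come apart and the first follicles form.

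The mature sequences are shown first because the family is defined by them. They were taken from RefSeq on GRCm38.p6, which held 4 of the 5 members, and are written 5′ to 3′ with the seed in capitals.
miR-130a-3p: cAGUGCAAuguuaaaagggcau
miR-130b-3p: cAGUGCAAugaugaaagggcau
miR-301a-3p: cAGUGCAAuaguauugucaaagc
miR-301a-5p: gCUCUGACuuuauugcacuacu
The 3 3p sequences shared their first 9 bases and differed after them. Counted from 1 at the 5′ end, miR-130a-3p and miR-130b-3p differed by U11A and A13G alone. miR-301a-3p differed from miR-130a-3p at 10 of 22 positions. Of 529 miRNAs of the table with a RefSeq sequence, these 3 had the seed. The seed is also listed for miR-130c, miR-721, miR-6341 and miR-6389, which have no row in the table analysed here.

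The Mir301 hairpin is shown whole with the 5p and the 3p arm in capitals, because both of its arms are members. The 5p arm is a member because of its fall.
Mir301: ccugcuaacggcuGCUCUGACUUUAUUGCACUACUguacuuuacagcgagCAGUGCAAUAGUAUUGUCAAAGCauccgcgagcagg
It lies at chr11:87113004-87113089 on the plus strand (GRCm38), within an intron of Ska2, a gene for a spindle and kinetochore protein on the same strand. Mir130b, at chr16:17124061-17124142, and Mir301b, at chr16:17124400-17124496, lie 257 bases apart on the minus strand, both within introns of the protein-coding gene 2610318N02Rik. Mir130a, at chr2:84741115-84741178 on the minus strand, overlaps no other gene in the GENCODE annotation. The family therefore comes from 3 separate places in the genome. miR-301a-3p matches a stretch of the Mir301b hairpin with 1 mismatch over its 23 bases, so reads of miR-301a-3p and miR-301b-3p could have been exchanged in counting.

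The libraries held 5253367 counts at 0 μM, 5064602 at 10 μM and 5952274 at 100 μM. The 10 most abundant miRNAs took 45.4% and 45.6% of the counts at 0 and 10 μM but 70.5% at 100 μM. The members together had 345, 329.5 and 68.2 CPM (counts scaled to the library total). Counts were divided by median-of-ratios size factors (1.38, 1.35 and 0.546), and these normalized counts are the levels given here. The 95% intervals cover counting error only, because there is 1 library per concentration. They treat each read as a separate count, although a count of reads is not a count of molecules, so they may be too narrow. A level at 3 counts or fewer was taken as at the floor, which corresponds to 5.50 normalized counts at 100 μM. No member was at the floor. Of the 627 miRNAs, 0 were at the floor at 0 μM, 8 at 10 μM and 40 at 100 μM. miRNAs rare at 0 μM thus seem to be absent, so shares above a threshold may be too low beside shares below it. In sequencing of whole ovaries, fewer cells of a type and less RNA per cell cannot be told apart.

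miR-130a-3p, known from endothelial cells, where it targets homeobox genes that hold back vessel growth, was the most abundant member in each library. It had 1127 counts at 0 μM, 1123 at 10 μM and 295 at 100 μM, which were 818, 833 and 540.5 normalized counts. The levels at 0 and 10 μM lay within counting error of each other, and the 100 μM level was lower. Its log2 ratio between 100 and 0 μM was -0.60 (95% interval -0.79 to -0.41), or 66.1% of the 0 μM level. Of all 587 miRNAs, 32.9% had the same or a lower ratio. The ratio depended on scaling and was -2.11 with total counts and -1.36 with sizes summed over all but the 10 top miRNAs.

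miR-130b-3p and miR-301b-3p, the neighbors on chromosome 16, had no detectable difference between 100 and 0 μM with the size factors. miR-130b-3p had 145, 136 and 61 counts at 0, 10 and 100 μM, or 105, 101 and 112 normalized counts. Its 3 levels overlapped in their intervals, and the log2 ratio between 100 and 0 μM was 0.09 (-0.37 to 0.53). miR-301b-3p was the rarest of the 3p arms at 0 and 10 μM, with 50, 58 and 27 counts, or 36.3, 43.0 and 49.5 normalized counts. Its log2 ratio between 100 and 0 μM was 0.44 (-0.29 to 1.15), an interval that includes no difference. Both values turned to below 0 when the libraries were scaled to total counts, at -1.42 for miR-130b-3p and -1.05 for miR-301b-3p. They also turned, to -0.67 and -0.31, when library sizes were summed over all but the 10 top miRNAs. The ratio of miR-301b-3p to miR-130b-3p does not depend on scaling. In the 0 μM library it was 0.345 (0.245 to 0.479). In the 10 and 100 μM libraries it was 0.426 (0.308 to 0.584) and 0.443 (0.270 to 0.707), and the 3 intervals overlapped.

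miR-301a-3p, which has the same seed, had 173 counts at 0 μM, 106 at 10 μM and 13 at 100 μM. These were 126, 78.6 and 23.8 normalized counts. Each level was below the one before it and the 3 intervals did not overlap. The log2 ratio to 0 μM was -0.67 at 10 μM (-1.04 to -0.32) and -2.37 at 100 μM (-3.34 to -1.59). At 100 μM 19.0% of the 0 μM level was left with the size factors, and miR-301a-3p moved from rank 342 of 627 by abundance to rank 474. The log2 ratio between 100 and 0 μM was -3.86 with total counts. With sizes summed over all but the 10 top miRNAs it was -3.12.

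miR-301a-5p had 318 counts at 0 μM, 246 at 10 μM and 10 at 100 μM, or 231, 182.5 and 18.3 normalized counts. Its intervals at 0 and 10 μM just overlapped (206 to 258 and 160 to 207), and the 100 μM interval of 8.79 to 33.7 lay far below both. The log2 ratio was -0.34 between 10 and 0 μM (-0.58 to -0.09) and -3.62 between 100 and 0 μM (-4.73 to -2.76), a 12.3-fold lower level. Only 10 of the 587 miRNAs had a lower ratio. The ratio of miR-301a-5p between 100 and 0 μM was -5.10 with total counts. With sizes summed over all but the 10 top miRNAs it was -4.37.

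**Figure D1:**
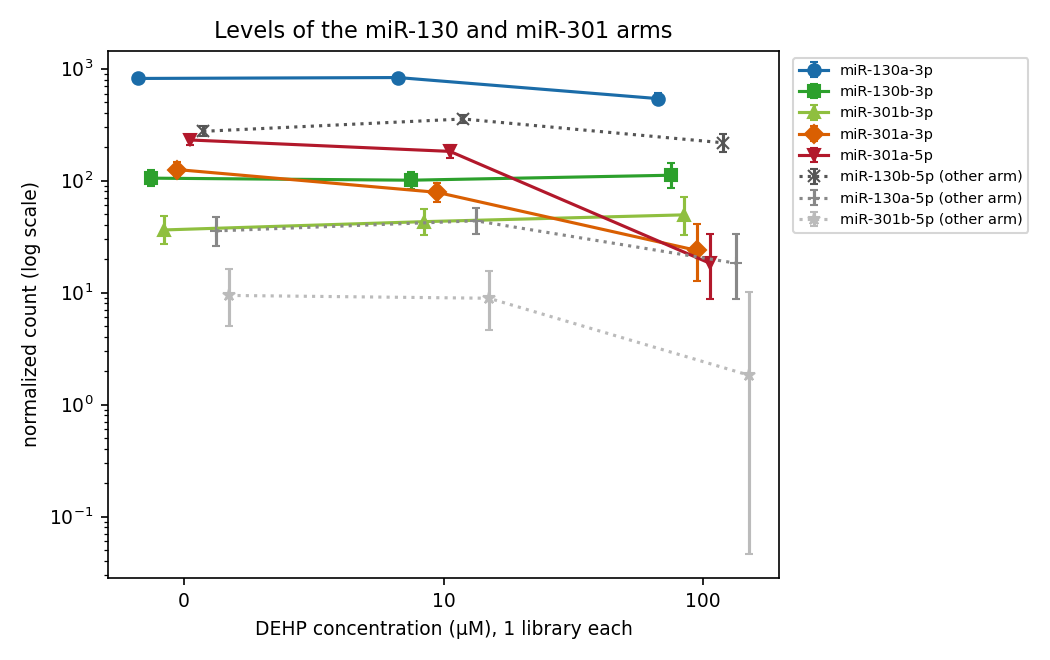
Normalized counts (log axis) of the 5 members (solid lines) and the 3 other arms of their hairpins (dotted lines) in the 1 library of each DEHP concentration, with exact Poisson 95% intervals of the counts as bars. Both miR-301a arms dropped at 100 μM, to 23.8 and 18.3, while miR-130b-3p stayed between 101 and 112 with these size factors (lower at 100 μM with total counts).

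The label of miR-301a-5p as a passenger strand went against its counts. At 0 μM it had 318 counts against 173 for miR-301a-3p, a 3p-to-5p ratio of 0.544 (0.449 to 0.657), and at 10 μM the ratio was 0.431 (0.340 to 0.543). At 100 μM, with 13 and 10 counts, it was 1.30 (0.527 to 3.31), and which arm was more abundant could not be told at this depth. miR-130b was also led by its 5p arm, with ratios of 0.382, 0.284 and 0.513 at the 3 concentrations. The miR-130a hairpin was led by its 3p arm, with a ratio of 23.0 at 0 μM, and so was miR-301b, with 3.85. Among the 174 hairpin names whose arms both averaged 10 or more normalized counts, the 5p arm was the more abundant one at 0 μM for 85 (48.9%).

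Between 10 and 0 μM, none of the 5 members had a log2 ratio beyond 2. Of the 587 miRNAs, 0% were above 2 and 0.681% below -2, in a table that seems to lack miRNAs rare at 0 μM. The 4 3p arms lay between -0.67 and 0.24, with a median of -0.02, beside a median of 0.02 over all miRNAs. For both miR-301a arms the counting interval lay below 0. For the other 3 members it included 0.

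Between 100 and 0 μM, 2 of the 5 members were below -2, miR-301a-5p and miR-301a-3p, and 0 were above 2. Of all 587 miRNAs, 9.37% were below -2 and 10.4% above 2, or 55 lower and 61 higher. With total counts 3 of the 5 members were below -2, beside 213 miRNAs lower and 4 higher. miR-301a-5p was chosen for its fall, and the interval of miR-301a-3p reached -1.59, so nothing is read from this count. The median of the 4 3p arms was -0.26, beside -0.01 over all miRNAs. With miR-301a-5p, chosen for its fall, the median of the 5 members was -0.60, and nothing is read from that value. The 4 3p arms spanned 2.82 on the log2 scale, from -2.37 to 0.44. The interquartile range of all miRNAs ran from -1.06 to 1.12.

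Between 100 and 10 μM, 1 of the 5 members was below -2, with 8.69% of all miRNAs there and 12.3% above 2. This was miR-301a-5p, at -3.28 (-4.39 to -2.41). miR-301a-3p was at -1.70 (-2.68 to -0.89), and its level at 10 μM was already below that at 0 μM. miR-130a-3p was at -0.62, miR-130b-3p at 0.15 and miR-301b-3p at 0.20, the last pair both below 0 with total counts or with sizes summed over all but the 10 top miRNAs. This comparison and the one between 100 and 0 μM use the same 100 μM library.

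**Figure D2:**
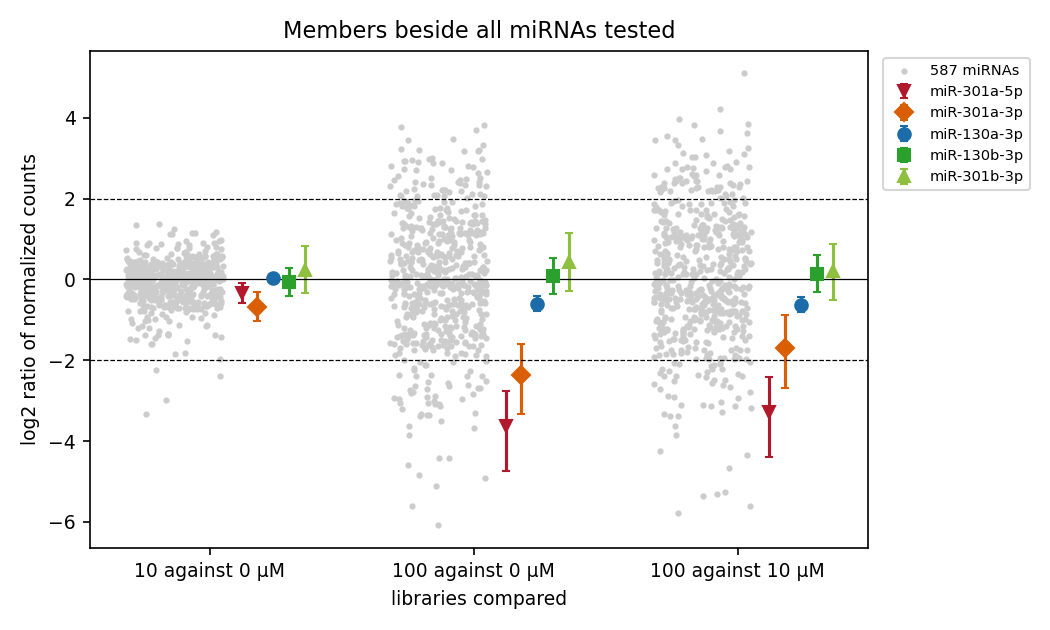
Log2 ratios of normalized counts for the 5 members, with 95% counting intervals as bars, beside the 587 miRNAs averaging 10 or more normalized counts (gray points), for each pair of libraries. Dashed lines mark a log2 ratio of 2 and -2. At 100 against 0 μM the members reached from -3.62 for miR-301a-5p to 0.44 for miR-301b-3p.

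The 3p arms were compared with miR-301a-5p within each library, where scaling cancels. miR-130a-3p had 3.54 times the count of miR-301a-5p at 0 μM (3.13 to 4.03). This became 4.57 times in the 10 μM library (3.97 to 5.26) and 29.5 times in the 100 μM library (15.8 to 62.2). The miR-130b-3p count was 0.456 of that of miR-301a-5p at 0 μM (0.372 to 0.557) and 6.10 times it at 100 μM (3.10 to 13.4). miR-301b-3p went from 0.157 (0.114 to 0.212) to 2.70 times (1.27 to 6.25). Because miR-301a-5p was chosen for its fall, any arm that fell less gains on it, and the gains are given as a description. For these 3 arms they were 2.99 (2.13 to 4.15), 3.68 (2.71 to 4.91) and 4.05 (2.89 to 5.39) on the log2 scale between 0 and 100 μM. miR-301a-3p, cut from the same hairpin, gained 1.24 (-0.08 to 2.64), an interval that includes no difference and a gain of 2. Between 100 and 10 μM its gain was 1.57 (0.23 to 2.99). In all, 12 such changes were computed, 4 arms in 3 pairs of libraries, and the intervals were not adjusted for their number.

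miR-301a-3p also fell behind the 3p arms that share its seed. Of the 4 3p arms it had the lowest ratio between 100 and 0 μM, so any other arm gains on it. These gains too are given as a description, and their intervals were not adjusted for the number of comparisons. Relative to miR-301a-3p, the change between 0 and 100 μM was 1.75 for miR-130a-3p (0.96 to 2.76) and 2.44 for miR-130b-3p (1.53 to 3.53). For miR-301b-3p it was 2.81 (1.71 to 4.02). The order of the levels changed with it. At 0 μM the order from the highest was miR-130a-3p, miR-301a-5p, miR-301a-3p, miR-130b-3p and miR-301b-3p, and miR-301a-3p and miR-130b-3p did not differ beyond counting error (ratio of miR-130b-3p to miR-301a-3p 0.838, 0.667 to 1.05). At 10 μM miR-130b-3p and miR-301a-3p changed places in the order, again within counting error (1.28, 0.988 to 1.67). At 100 μM the order was miR-130a-3p, miR-130b-3p, miR-301b-3p, miR-301a-3p and miR-301a-5p, and here miR-130b-3p had 4.69 times the count of miR-301a-3p (2.55 to 9.31). The last pair in that order did not differ beyond counting error.

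The counts of the 4 3p arms were summed, which covers these arms and not every miRNA listed with the seed. The sums were 1495 at 0 μM, 1423 at 10 μM and 396 at 100 μM, or 1085, 1056 and 725 normalized counts. The log2 ratio was -0.04 between 10 and 0 μM (-0.15 to 0.07), -0.58 between 100 and 0 μM (-0.74 to -0.42) and -0.54 between 100 and 10 μM (-0.71 to -0.38). Without miR-130a-3p, which gave most of the counts, the other 3 together were at -0.53 between 100 and 0 μM (-0.86 to -0.21). Scaled to total counts, the summed 3p arms were at -2.10 between 100 and 0 μM, and at -1.34 with library sizes summed over all but the 10 top miRNAs.

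The make-up of this sum does not depend on scaling between libraries. Of the 3p counts at 0 μM, 75.4% were miR-130a-3p (73.1% to 77.5% by the Wilson method). This share was 78.9% at 10 μM (76.7% to 81.0%) and reached 74.5% in the 100 μM library (70.0% to 78.5%). The share of miR-301a-3p went from 11.6% (10.0% to 13.3%) to 7.45% (6.20% to 8.93%) and 3.28% (1.93% to 5.53%), with no overlap between the intervals. The shares of the chromosome 16 arms were larger at 100 μM. miR-130b-3p had 9.70% at 0 μM (8.30% to 11.3%) and 15.4% at 100 μM (12.2% to 19.3%), and miR-301b-3p had 3.34% (2.55% to 4.38%) and 6.82% (4.73% to 9.74%).

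**Figure D3:**
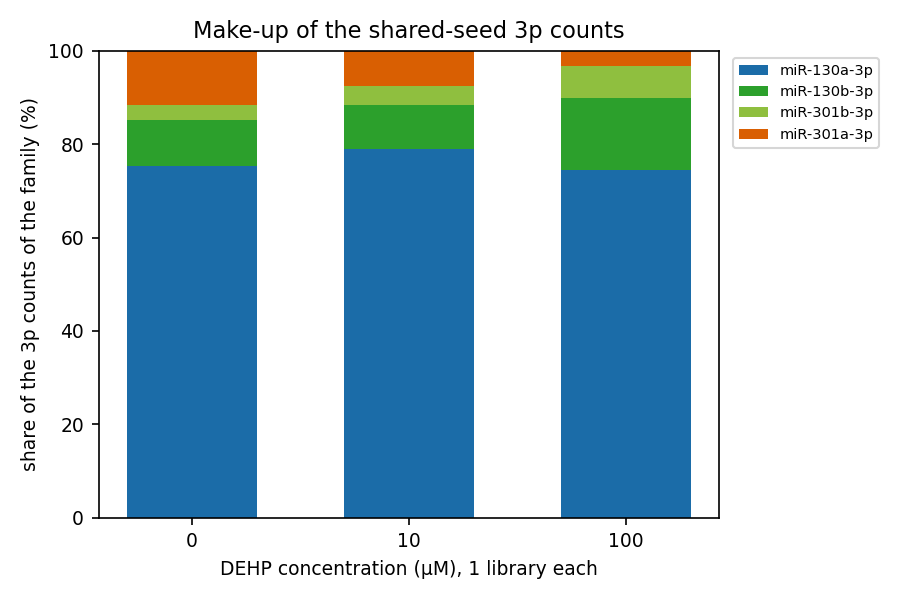
Share of each 3p arm in the summed 3p counts of the family, in percent, in the 1 library of each DEHP concentration (1495, 1423 and 396 counts). miR-130a-3p made up 74.5% to 78.9% throughout, and miR-301a-3p went from 11.6% to 3.28%.

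The 5p arms of the other hairpins are not members and were read beside miR-301a-5p. miR-130b-5p had 380, 479 and 119 counts, or 276, 355 and 218 normalized counts, and a log2 ratio between 100 and 0 μM of -0.34 (-0.65 to -0.04). miR-130a-5p had 49, 59 and 10 counts, with a log2 ratio of -0.94 (-2.10 to 0.04). miR-301b-5p, which shares the seed and the last 10 bases of miR-301a-5p, had 13, 12 and 1 counts and did not reach the minimum mean. The log2 ratio between 100 and 0 μM was -2.09 (-7.77 to 0.37), so a fall was not detectable at this depth.
miR-301a-5p: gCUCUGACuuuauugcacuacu
miR-301b-5p: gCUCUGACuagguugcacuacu
The pair is printed together because the sequences differ only by U10A, U11G and A12G from the 5′ end, while their counts at 0 μM were 318 and 13.

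The balance between arms was set beside all hairpins. Between 100 and 0 μM the 3p-to-5p ratio changed by 0.31 on the log2 scale for miR-130a (-0.66 to 1.52), by 0.43 for miR-130b (-0.13 to 0.97) and by 1.24 for miR-301a. Of the 3, miR-301a was the hairpin past 1, as were 39.1% of the 174 hairpin names, and between 100 and 10 μM, where it was also past 1, the share was 40.8%. The median change of the 174 was 0.44 between 100 and 0 μM, with an interquartile range from -1.09 to 1.72. The member hairpins were far from the extremes. The 3p arm gained most for miR-30e (7.04), miR-708 (6.61) and miR-140 (5.30), and the 5p arm gained most for miR-10b (-4.87), miR-380 (-4.59) and miR-200a (-4.58). In those 6 hairpins, picked for the largest changes of the ratio, 1 arm was higher and the other lower at 100 μM. Both miR-301a arms were lower, but miR-301a-5p was chosen for its fall, so nothing is read from this contrast.

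For 2.3% of the hairpin names both arms were below -2 between 100 and 0 μM. These 4 names, looked up after the values were seen, were miR-301a, miR-126a, miR-154 and miR-376a. miR-126a, the miRNA of endothelial cells, had 54626, 59970 and 4970 counts of its 3p arm and 9002, 10463 and 409 of its 5p arm, with log2 ratios of -2.12 and -3.12. The 3p arms of miR-154 and miR-376a had 3 counts each at 100 μM, which is at the floor.

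**Figure D4:**
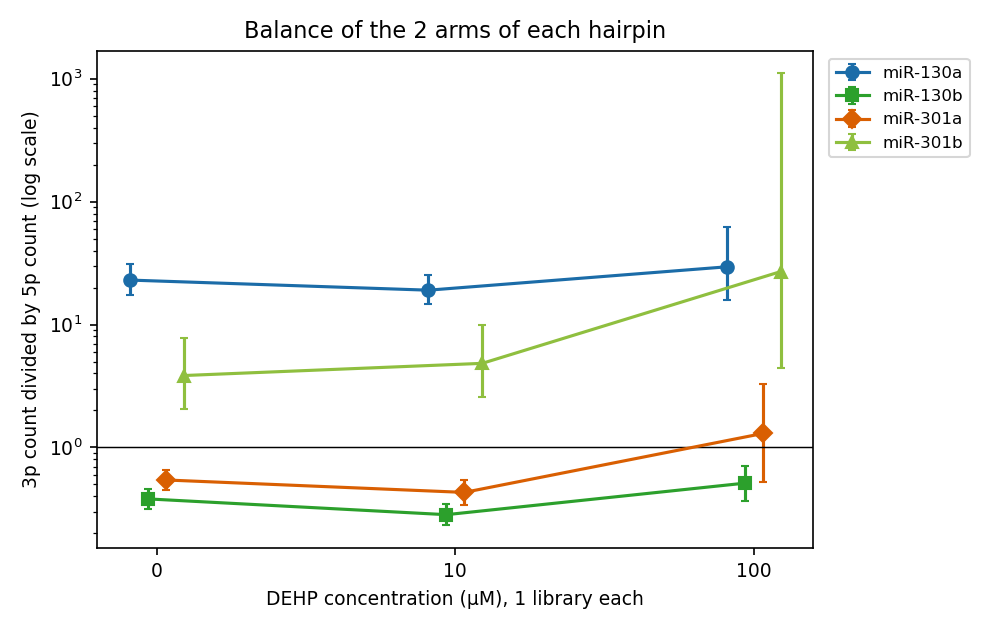
Count of the 3p arm divided by that of the 5p arm (log axis) of the 4 hairpins in each library, with exact Clopper-Pearson 95% intervals as bars, and a line where both arms are equal. miR-301a lay below 1 at 0 and 10 μM (0.544 and 0.431), and its interval included 1 at 100 μM. The miR-301b value at 100 μM rests on 1 count of the 5p arm.

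Some miRNAs hold 6 of the 7 seed bases of the family at another offset, and their sites partly overlap. The first 6 bases (AGUGCA) stand in the seed of miR-148a-3p, miR-148b-3p and miR-152-3p, and the last 6 (GUGCAA) in that of miR-19a-3p and miR-19b-3p. A sequence of each kind is shown for comparison with miR-130a-3p, with the seed in capitals.
miR-148a-3p: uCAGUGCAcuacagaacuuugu
miR-130a-3p: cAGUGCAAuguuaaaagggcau
miR-19a-3p: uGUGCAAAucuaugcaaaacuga
The offset groups differed in their values. miR-148a-3p, with 311575, 215026 and 1237350 counts, had a log2 ratio of 3.33 between 100 and 0 μM, miR-148b-3p had 1.84 and miR-152-3p 0.71. miR-19a-3p, with 717, 663 and 13 counts, was at -4.42 (-5.37 to -3.67) and miR-19b-3p at -3.06. With total counts miR-148a-3p and miR-148b-3p stayed above 0 while miR-152-3p and miR-350-5p turned to below 0. At 100 μM miR-19a-3p and miR-301a-3p had the same count of 13, from 717 and 173 at 0 μM. miR-350-5p, which also holds the first 6 bases, was at 0.46 (-0.33 to 1.23), close to the 0.44 of miR-301b-3p, and miR-291b-3p, with 13, 11 and 1 counts, did not reach the minimum mean.

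**Figure D5:**
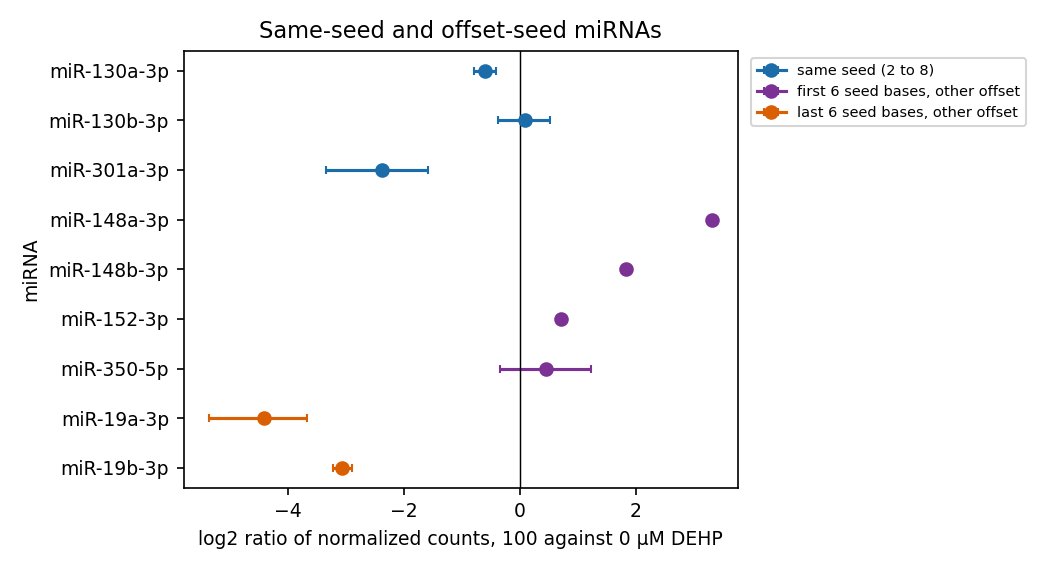
Log2 ratio of normalized counts between 100 and 0 μM DEHP for miRNAs with the family seed or with 6 of its bases at another offset, with 95% counting intervals as bars. With median-of-ratios scaling the 3 same-seed arms lay between -2.37 and 0.09, the 4 arms holding the first 6 bases between 0.46 and 3.33, and the 2 miR-19 arms at -4.42 and -3.06. miR-301b-3p, at 0.44, is not plotted.

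Other miRNAs known to target Pparg were read as a list of miR-27a-3p and miR-27b-3p, both in the table. miR-27a-3p had 4877, 4341 and 2109 normalized counts, and miR-27b-3p had 78987, 79434 and 105285, and neither was beyond 2 between 100 and 0 μM, where 9.37% of all miRNAs were below -2 and 10.4% above 2. With total counts miR-27a-3p was at -2.73 and miR-27b-3p at -1.10.

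The miRNAs with the most similar changes over the 3 libraries, whatever their levels, were found by the distance between pairs of log2 ratios (10 and 100 μM, each against 0 μM). For the summed 3p arms these were miR-376c-3p (distance 0.02), miR-139-3p (0.06) and miR-1195 (0.06). miR-376c-3p had 609, 575 and 159 counts. For miR-301a-5p they were miR-181c-5p (0.25), miR-741-5p (0.29) and miR-376a-5p (0.29). miR-181c-5p had 879, 739 and 24 counts and a log2 ratio between 100 and 0 μM of -3.84.

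The ovary label was checked with miRNAs of the cell types the organ can hold. The gonadal miR-202-5p had 30017, 39447 and 17952 normalized counts and miR-202-3p had 1171, 935 and 2012, with a median log2 ratio between 100 and 0 μM of 0.02. The 2 endothelial arms of miR-126a summed to 46170, 52252 and 9855 normalized counts at 0, 10 and 100 μM (median log2 ratio -2.62). Of 10 germ and pluripotent cell miRNAs, all in the table, 2 were above 2 between 100 and 0 μM and 0 below -2 (10.4% and 9.37% of all miRNAs). Their median was 0.59 and their summed level 23927, 22571 and 49878. The higher sum at 100 μM came mostly from miR-871-3p, at 6271, 6494 and 28899. By contrast, miR-290a-5p, miR-293-3p, miR-743a-3p and miR-880-3p had log2 ratios below 0. For red blood cells 4 of 5 listed miRNAs were in the table and summed to 1765, 1884 and 1568, with miR-486a-5p and miR-486b-5p holding the same counts. The median of the red blood cell list was -0.16, over the 3 miRNAs that reached the minimum mean. The 5 muscle and stroma miRNAs summed to 214731, 170568 and 794289, led by miR-143-3p. Their median was -0.18, over the 4 that reached the minimum mean. The 4 leukocyte miRNAs summed to 218, 187 and 130.1 (median -0.83). In both lists 0 were beyond 2 between 100 and 0 μM, against 9.37% of all miRNAs below -2 and 10.4% above 2. These counts and medians depended on scaling. With total counts 213 of all miRNAs were below -2 and 4 above 2. The germ and pluripotent cell miRNAs then had a median of -0.92, with 0 above 2 and 3 below -2. Of the muscle and stroma miRNAs 2 were below -2, as were 2 of the leukocyte and 1 of the gonadal miRNAs. Both endothelial arms were below -2 in either case. No marker in the table was at 0 in any library. The red blood cell miR-144-3p, with 16, 3 and 2 counts, was at the floor at 10 and 100 μM and did not reach the minimum mean. The part of these changes in the levels of the family was not tested.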

How the data were processed

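Small RNA libraries of cultured ovaries (1 per DEHP concentration) were read from the table of whole-number counts that the authors deposited. Per the methods, reads were trimmed of adapters and low-quality bases, and the tools named are bowtie2 and miRDeep2. The submitters' processing notes name mm10 and DESeq2. Versions and the miRBase release are not given in the sources used here. Columns were matched to groups by sample title.

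For each mature ID of the 961 rows the row with most counts was kept, giving 627 miRNAs. DESeq2 1.42.0 (R 4.3.3) gave the size factors, edgeR 4.0.16 the TMM and upper-quartile alternatives, and other steps used Python 3.11.15 and scipy 1.17.1. Log2 ratios had 0.5 added (normalized counts, or counts for arm ratios), and a ratio beyond 2 was the threshold. Intervals were Clopper-Pearson for ratios, conditional odds-ratio intervals for changes of a ratio and Poisson for levels (all exact), and Wilson for shares. Without replicates no test was made. The ratios and the intervals of ratios and arm ratios were tested on simulated counts. These had counting error alone and took the size factors as known, so scaling was not tested. Sequences came from RefSeq and annotation from GENCODE M21, both on GRCm38.

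The members and lists were chosen with earlier results of these data known. The miRNAs named were the members, their other arms and seed relatives, the Pparg and marker lists, the 3 most similar miRNAs and the 3 largest arm changes each way. Alternatives were other scalings, added counts, minimum counts, summed rows and other ways of combining the 3p arms. Another list of miRNAs is not reported here.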

Additional observations from a re-analysis of the deposited data

How the results depend on the processing

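No paired analysis was possible because each concentration has a single library, so leaving out a replicate was not possible either. Scaling moved the values against 100 μM. Relative to the median-of-ratios factors, total counts shifted the ratio of the library factors between 100 and 0 μM by -1.52, and sizes summed over all but the 10 top miRNAs by -0.76, before the added 0.5, which makes the shift smaller at low counts. Between 10 and 0 μM the shifts were 0.02 and 0.04. With total counts the summed 3p arms were at -2.10 between 100 and 0 μM and -2.08 between 100 and 10 μM, and 3 of the 5 members were below -2 in each. With all but the 10 top miRNAs the sums were at -1.34 and -1.35. Taken as the median of the single arms, the values were -0.26 and -0.24. Without miR-130a-3p the sum was at -0.26 between 10 and 0 μM and -0.27 between 100 and 10 μM. Leaving out miR-301a-3p gave -0.45 between 100 and 0 μM, an alternative chosen after seeing the data, as were the scalings of the target, marker and offset-seed lists.

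The count of miRNAs beyond 2 was 116 between 100 and 0 μM (61 higher) and became 217 with total counts (4 higher) and 75 at a mean of at least 100 (50 higher). Between 100 and 10 μM it was 123 (72 higher) and became 234 (8 higher) and 81 (57 higher). With all but the 10 top miRNAs the splits were 23 higher to 130 lower and 24 higher to 119 lower. Between 10 and 0 μM it was 4, with 9 under no minimum and 1 at a mean of at least 100. The miR-301a arm ratio change stayed within its counting interval when 1 count was added or rows were summed. Of 90 values of single members under an alternative, 74 stayed within their counting interval and 16 moved out of it. The sign changes were those of miR-130b-3p and miR-301b-3p given above, whose intervals include 0. Depth limits the miR-301a arms most, with 13 and 10 counts at 100 μM.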
